A study of Mus musculus with 15 samples.

Results

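The genes described here are 45 mouse genes whose products add acetyl groups to histones and other proteins, remove them, or bind acetylated and methylated histone tails: 12 acetyltransferases and coactivators, 18 deacetylases and 15 reader or scaffold subunits. They were taken by symbol from the 55335 gene identifiers of the count files, and all 45 were found. Of these, 44 passed the filter on low counts and were tested among 13077 genes. The gene left out was Hdac11, the class IV deacetylase, with 1, 2 and 0 reads in wild-type replicates 1, 2 and 3 and 0, 1 and 0 reads in the knockout replicates.

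RNA was sequenced from cultured mouse pre-B cells, the bone marrow stage at which a B cell precursor carries a pre-B cell receptor. Both groups lack SLP65 by label and descend from 1 single-cell clone grown in medium with interleukin 7. The wild-type group (Slp65KO, Msl2 not edited) and the knockout group (Slp65KO with Msl2 edited by CRISPR/Cas9) held 3 libraries each, with no treatment. The knockout is 1 edited line, and the labels do not say that the libraries came from separate cultures, so a p-value here covers only the scatter of these 6 libraries and may rest on technical replicates.

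The genotype tags name the opposite genotype for all 6 RNA libraries. Groups here follow the titles, and each "higher" or "lower" would turn around if the tags were right. Msl2 RNA did not tell the groups apart by loss: it was at 97.1, 99.3 and 92.3 CPM (depth-scaled reads, using TMM factors) in the wild type and at 105, 103 and 121 CPM in the knockout (edgeR quasi-likelihood test, adjusted p 0.302). Blnk, which encodes SLP65, was at 98.3 ± 19 CPM in wild-type and 112 ± 4.07 CPM in knockout libraries (SD, n = 3 each; adjusted p 0.563, edgeR). Library totals ran from 14092278 to 20803227 counts, which puts the limit for a gene with 0 reads at 0.141 to 0.212 CPM, for counting error only. Of 13 pre-B cell markers 12 were tested, and their summed level was 2960 to 3280 CPM in the wild-type and 3000 to 3020 CPM in the knockout libraries. Among them Il7r was called lower, while the recombinase genes had uneven counts. Rag1 had 0, 34 and 0 reads in the wild type and 29, 17 and 9 in the knockout, and Rag2 had 0, 27 and 0 reads in the wild type and 54, 44 and 37 in the knockout (log2 fold change 2.23, p 0.0252, adjusted p 0.223). Wild-type replicate 2 thus stood apart from the other wild-type libraries for both. The groups did not overlap for Rag2, which held for 20.9% of all tested genes. Rag2 reached the limit of the count filter in 3 knockout libraries and 1 wild-type library, so it passed only through the knockout, where it is high. Of the markers of other cells, 4 of 16 for T and NK cells were tested (summed level 12.9 to 22.5 CPM in the wild type and 6.4 to 14.2 CPM in the knockout, with 4 at 0 in all libraries), 2 of 12 for myeloid cells (3.25 to 5.75 and 3.38 to 5.47 CPM, 4 at 0), 3 of 11 for erythroid cells and megakaryocytes (146 to 171 and 132 to 190 CPM, 3 at 0) and 1 of 8 for stromal cells (103 to 123 and 115 to 131 CPM, 4 at 0). Lat, of the T cell list, and Gata1, of the erythroid list, were also called lower. Gata1 (31, 28 and 27 reads in the wild type, 5, 7 and 1 in the knockout) passed the count filter through the wild-type libraries alone. The part of these markers in the results was not tested. In bulk RNA, fewer cells with a transcript and less of it per cell cannot be told apart.

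Acetylation of lysines on histone tails loosens their contact with DNA and makes a docking site for bromodomains, and is a mark of active promoters and enhancers. Acetyltransferases write it from acetyl-CoA, zinc-dependent deacetylases and the NAD-dependent sirtuins erase it, and bromodomain proteins read it, while ING proteins read histone H3 methylated on lysine and bring acetyltransferases or deacetylases to it. MSL2 belongs to the MSL complex, whose own acetyltransferase, KAT8 of the MYST family, acetylates histone H4. The 45 genes here are other writers, erasers and readers of the same modification. In B cell precursors such enzymes act with the transcription factors that drive B lineage genes.

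The series is about targeting of the MSL complex by YY1, a zinc-finger protein whose core motif is the letters AANATGGCG, so the members' promoters that carry this motif are shown first. RefSeq promoter windows (build GRCm38.p6, which is mm10; 250 bases before to 50 bases after a gene's start, either strand searched) were found for 38 of the 45 genes. The motif occurred in 4 of the 38 (10.5%), against 2.76% of 27025 genes with an entry and 6.55% of the 8899 tested genes with an entry. Where a gene had several windows, a match in any of them counted. The part in capitals is the motif, and each sequence is given 5′ to 3′ on the gene's strand. Distances are from the start listed with the window. For Kat7 that start is the 5′ end of the gene's whole span, for Ncoa1 and Ing5 it lies 24 and 39 bases inside it, and for Brd2, which has 3 listed starts, it is an internal one 2914 bases inside.

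Brd2, chr17:34119910-34119938, minus strand, 28 bases before an internal start: cgcgacttctAAGATGGCGtctgtcttcc
Kat7, chr11:95310312-95310340, minus strand, 84 bases before the start: gcccaattccAAAATGGCGctgactggcc
Ing5, chr1:93803990-93804014, plus strand, 35 bases after the start: ggccgaggcgAAGATGGCGactgcc
Ncoa1, chr12:4477133-4477152, minus strand, 40 bases after the start: ggaggaggagAACATGGCGg

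None of the 4 genes passed the test in the knockout (all genes: 4.59% called by edgeR). Their log2 fold changes (knockout over wild type) were 0.05 for Brd2, 0.07 for Kat7, 0.08 for Ing5 and -0.10 for Ncoa1, with adjusted p of 0.871, 0.82, 0.754 and 0.73 in edgeR. The shorter core ATGGCG, which every longer match also contains, was found for 10 of the 38 genes (26.3%). It was found for 10.2% of all genes with an entry and 18.8% of tested ones. A match is a string of letters and not a bound site, and binding of YY1 or MSL2 was not analysed here.

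For the gene that fell, Kat6b, 2 starts are listed, and the 250 bases before the first of these, chr14:21499520-21499769 on the plus strand, were searched. The listed start lies 554 bases inside the whole span of the gene, so this stretch is not upstream of every transcript. It holds GGGCGG (the GC box letters, either strand) 8 times, some of them overlapping, and 78.8% G or C, against a median of 52.4% over 32851 promoter entries. The part with the densest matches, chr14:21499656-21499677, is shown with GGGCGG in capitals.

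Kat6b: GGGCGGagactgGGGCGGGCGG

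A window with GGGCGG was found for 32 of the 38 members with an entry (84.2%), for 38.2% of all genes with an entry and for 68.2% of tested ones. Neither AANATGGCG nor ATGGCG occurred in the 250 Kat6b bases, which says only that those letters are not in it.

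Of the 44 tested genes, 1 was called at an adjusted p under 0.05 (edgeR, Benjamini-Hochberg over all 13077 genes), and it was lower in the knockout. Among all tested genes 4.59% were called, 2.79% lower and 1.80% higher. The members' share, 1 of 44, thus lies near that background. DESeq2 called 3 members (Kat6b, Hdac5 and Sirt1), against 6.07% of all genes, and limma-voom called 1 (Kat6b), against 4.74%. At an unadjusted p under 0.05 there were 8 members, 5 higher and 3 lower (all genes: 15.4%, of which 6.94% higher and 8.43% lower). The 3 wild-type and 3 knockout libraries did not overlap for 13 members, 9 higher and 4 lower in the knockout, against 20.9% of all genes (9.68% higher, 11.2% lower). The median log2 fold change was 0.06 over the members and 0.004 over all genes, and 31 members had a positive value (70.5%, against 51.0% of all genes).

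The intervals limit the size of changes that were not called, for the scatter of these 6 libraries and this 1 edited line only. The members drew more reads than most genes (median 61.8 CPM, against 23.9 CPM over all genes). The share over all genes given next was not matched for this. For 40 of the 44 genes the 95% interval of the fold change lay within 1.5-fold in either direction, which held for 62.5% of all tested genes, and for 43 it lay within 2-fold. The 4 whose interval reached 1.5-fold were Kat6b, Sirt1, Sirt4 and Ing4. The SE of a member's log2 fold change ran from 0.069 to 0.278, with a median of 0.0959.

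**Figure D1:**
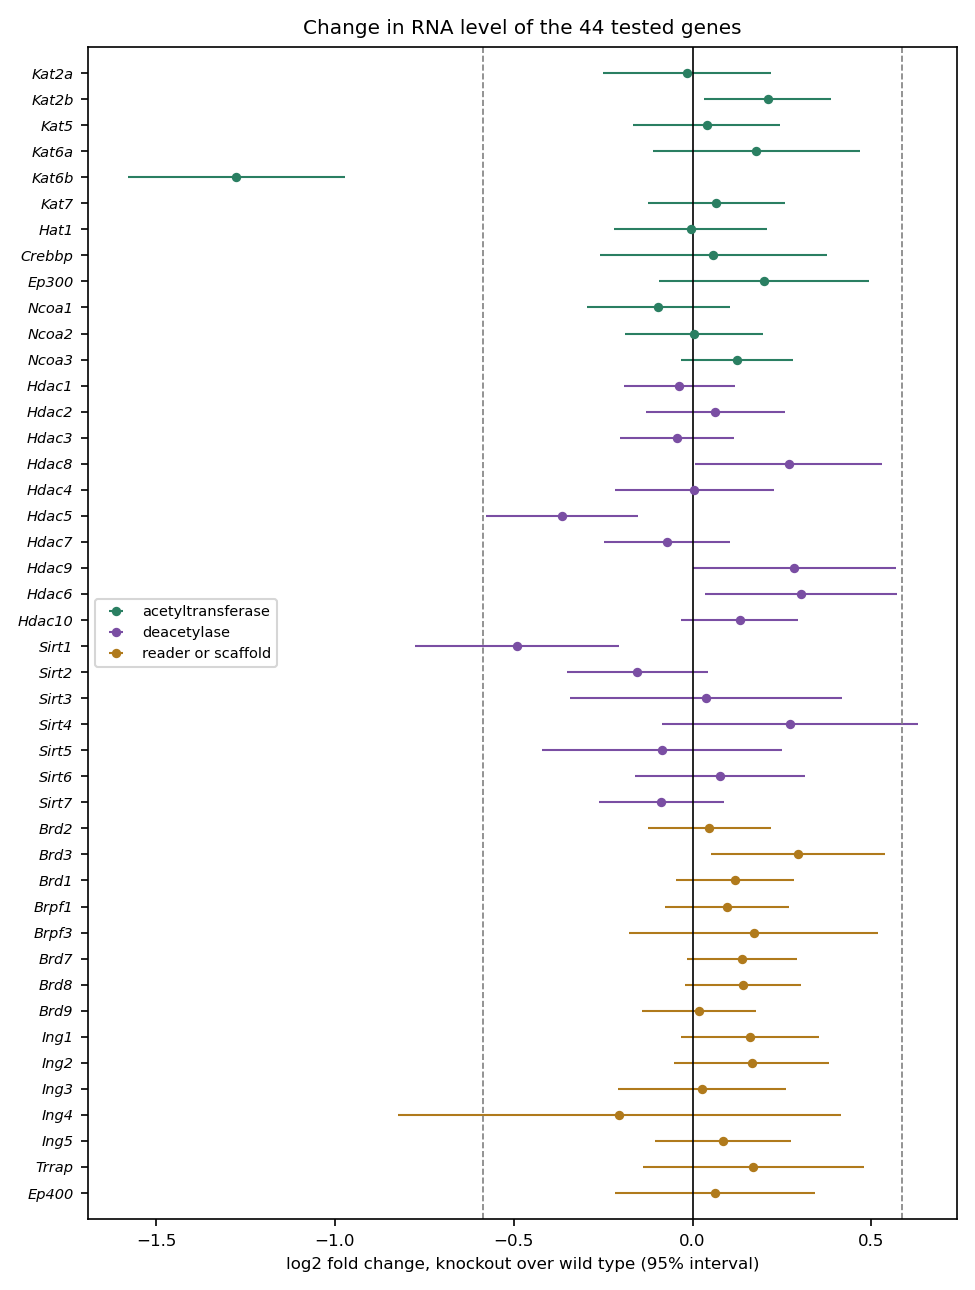
Log2 fold change (x axis, knockout over wild type) of each of the 44 tested genes (y axis), coloured by role, with points for the estimate, bars for its 95% interval and dashed lines at 1.5-fold. Kat6b, at -1.28, lies apart from the other 43, whose estimates run from -0.49 to 0.30.

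Among the 12 acetyltransferases and coactivators, 1 fell, 0 rose and 11 did not pass the test (all genes: 2.79% lower and 1.80% higher). The median log2 fold change of the 12 was 0.05. Kat6b (ENSMUSG00000021767.19, chromosome 14, 21499216 to 21672478, mm10) encodes a MYST family acetyltransferase of histone H3, also known as MORF or Querkopf, that works in a complex with a BRPF scaffold, an ING reader and MEAF6. Its level was 46.8, 49.3 and 39.7 CPM in the wild type and 15.4, 22.2 and 18.3 CPM in the knockout (replicates 1, 2 and 3 in that order, here and for the other genes). Each knockout library held less than any wild-type library, and the gap between the groups was wider than the spread in either. On average 45.3 ± 4.95 CPM in the wild type stood against 18.6 ± 3.41 CPM in the knockout (SD, n = 3 each). Kat6b RNA was 2.42-fold lower in the knockout, a log2 fold change of -1.28 ± 0.138 (SE; 95% interval -1.58 to -0.972). The adjusted p was 0.000596 with edgeR, 7.13e-15 with DESeq2 and 0.000732 with limma-voom. Kat6b was rank 62 of the 13077 genes by p, and no other annotated gene overlaps its span. Without each library in turn the log2 fold change stayed between -1.42 and -1.16, with edgeR adjusted p between 0.000295 and 0.00286.

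None of the genes around Kat6b passed the test. Within 500 kb of it 7 genes were tested, and 0 were called by edgeR, DESeq2 or limma-voom. The unadjusted edgeR p was under 0.05 for 1, Vcl, the focal adhesion protein vinculin (log2 fold change -0.25, adjusted p 0.303). The shares over all genes were 4.59%, 6.07% and 4.74% called by these tools and 15.4% at that unadjusted limit. The counts among these 7 neighbours thus lie near the background. The nearest on one side, Adk, which encodes adenosine kinase, was at 109 ± 6.01 and 105 ± 5.16 CPM, and Samd8, the nearest on the other side, was at 19.2 ± 1.47 and 22.4 ± 1.78 CPM. The log2 fold changes of the 7 neighbours ran from -0.39 to 0.67.

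The closest relative of Kat6b, Kat6a (MOZ, an acetyltransferase needed for blood stem cells), did not pass the test. Its level was 90.2, 89.6 and 63.2 CPM in the wild type and 92.5, 99.3 and 83.1 CPM in the knockout, so the groups overlapped, with wild-type replicate 3 the lowest of all 6. The log2 fold change was 0.18 with an adjusted p of 0.617, and 0.03 without that library. The log2 ratio of Kat6a to Kat6b reads in a library, which needs no scaling between libraries, was 0.946, 0.861 and 0.669 in the wild type and 2.59, 2.16 and 2.18 in the knockout. Every knockout ratio lay above every wild-type ratio, and the mean shift was 1.49 (exact two-sided permutation test, p = 0.1, the smallest this design allows; 0.233 adjusted over 14 pairs). Of the other MYST members, Kat5 (TIP60, which acetylates H4 and H2A variants) was at 32.8 ± 1.11 and 33.7 ± 3.01 CPM, and Kat7 (HBO1, which acetylates H3 and H4 at replication origins and promoters) at 100 ± 3.24 and 105 ± 11.1 CPM.

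The other subunits of the complexes that KAT6 and KAT7 enzymes form had 0 calls. Of 11 such genes tested (Kat6a, Kat7, Brpf1, Brpf3, Brd1, Ing4, Ing5, Meaf6, Jade1, Jade2 and Jade3), 0 were called by edgeR, DESeq2 or limma-voom and 0 had an unadjusted p under 0.05. The shares over all genes were 4.59% called by edgeR, 6.07% by DESeq2 and 4.74% by limma-voom, and 15.4% at that unadjusted limit. Log2 fold changes of the 11 genes ran from -0.21 to 0.18. Meaf6, a small subunit of several MYST complexes, was at 26.8 ± 1.34 and 26.3 ± 2.49 CPM.

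Kat2b (PCAF, chromosome 17, 53566774 to 53672721), an acetyltransferase of the SAGA and ATAC coactivators, was at 36.6, 37.8 and 40.1 CPM in the wild type and at 43, 43.8 and 45.8 CPM in the knockout. All knockout libraries were above all wild-type ones, but by little, and the difference did not pass the adjusted test (log2 fold change 0.21 ± 0.0798 SE, p 0.0245, adjusted p 0.22). Its paralogue Kat2a (GCN5), which takes the same place in these coactivators, was at 72.8 ± 7.46 and 72.1 ± 8.59 CPM. The global coactivators Crebbp (CBP) and Ep300 (p300), which acetylate histones at enhancers, were at 63.1 ± 12.7 and 65.7 ± 7.76 CPM and at 56.1 ± 10.8 and 64.4 ± 5.3 CPM, with adjusted p of 0.921 and 0.564. Without wild-type replicate 3 the log2 fold change of Ep300 was 0.05 in place of 0.20. The ratio of Crebbp to Ep300 was lower by 0.14 (log2) in the knockout, with no overlap between groups.

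The last acetyltransferases differed little between groups. Hat1, which acetylates newly made H4 in the cytoplasm, was at 137 ± 16.9 and 136 ± 8.27 CPM. The steroid receptor coactivators Ncoa1, Ncoa2 and Ncoa3 had log2 fold changes of -0.10, 0.004 and 0.12, of which only Ncoa3 separated the groups (89.9 ± 4.32 and 98 ± 2.02 CPM, adjusted p 0.472).

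**Figure D2:**
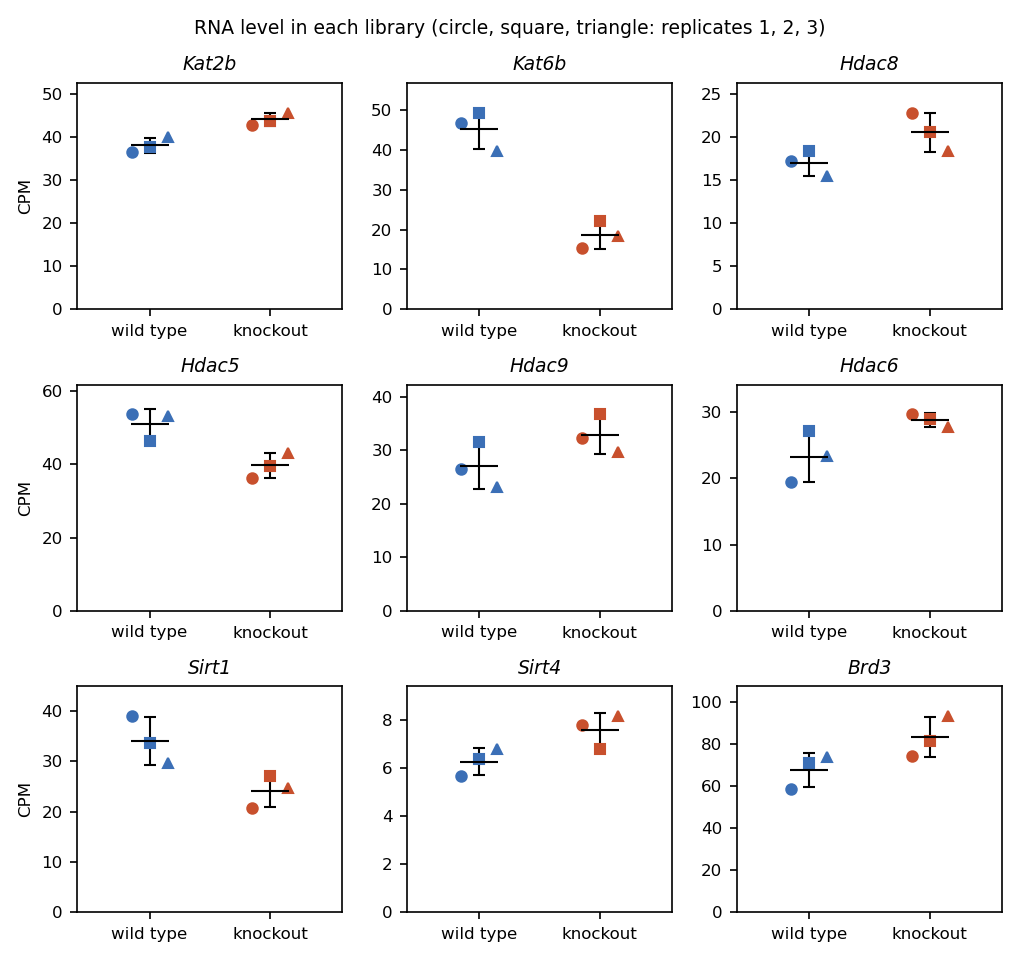
RNA level (y axis, CPM from 0) in each library for the 9 genes that were called, had an unadjusted p under 0.05 or separated the groups by at least 1.2-fold; circles, squares and triangles are replicates 1, 2 and 3, and black lines are the mean ± SD (n = 3). Kat6b falls from 45.3 to 18.6 CPM, and the other 8 genes differ by 1.16-fold to 1.41-fold, with overlapping groups for Hdac8 and Hdac9.

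Of the 17 deacetylases tested, 0 were called by edgeR or limma-voom (all genes: 4.59% and 4.74%) and 2 by DESeq2 (all genes: 6.07%). At an unadjusted edgeR p under 0.05 there were 5, 3 higher and 2 lower (all genes: 15.4%, of which 6.94% higher and 8.43% lower). The values were 9 positive and 8 negative, with a median of 0.01. The class I enzymes Hdac1, Hdac2 and Hdac3, which are the catalytic subunits of the NuRD, SIN3, CoREST and NCoR corepressors, had log2 fold changes from -0.04 to 0.06, with 0 called by edgeR, DESeq2 or limma-voom and 0 at an unadjusted p under 0.05. Hdac1 was at 113 ± 6 and 110 ± 1.42 CPM, Hdac2 at 91.2 ± 9.52 and 95.4 ± 4.87 CPM and Hdac3 at 116 ± 4.65 and 113 ± 5.06 CPM.

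The 4 class IIa enzymes, which bind MEF2 factors and shuttle between nucleus and cytoplasm, had values in both directions. Hdac5 (chromosome 11, 102195747 to 102230172) was at 53.7, 46.4 and 53.2 CPM in the wild type and at 36.2, 39.6 and 43.2 CPM in the knockout. The groups did not overlap, and knockout replicate 3 was the nearest to the wild type. The log2 fold change was -0.36 ± 0.0958 (SE), with adjusted p of 0.0638 in edgeR, 0.0327 in DESeq2 and 0.0615 in limma-voom, so the call depends on the tool. Hdac9 (chromosome 12, 34047580 to 34917095) was at 26.5, 31.5 and 23.1 CPM in the wild type and at 32.3, 36.8 and 29.7 CPM in the knockout. Wild-type replicate 2 lay above knockout replicate 3, so the groups overlapped (log2 fold change 0.28 ± 0.128 SE, p 0.0498, adjusted p 0.325). Hdac4 was at 29.2 ± 2.79 and 29.2 ± 1.8 CPM, and Hdac7, the class IIa enzyme that represses myeloid genes in B cell precursors, at 105 ± 7.72 and 100 ± 4.94 CPM (adjusted p 0.786).

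The members on the X chromosome are Hdac6 and Hdac8. Hdac6 (chromosome X, 7930116 to 7948047), the cytoplasmic deacetylase of tubulin, was at 19.4, 27.1 and 23.3 CPM in the wild type and at 29.7, 29 and 27.7 CPM in the knockout. The knockout libraries lay close together and above all wild-type libraries, among which replicate 1 was low (log2 fold change 0.30 ± 0.12 SE, p 0.03, adjusted p 0.245). Hdac8 (chromosome X, 102284638 to 102505381), which deacetylates cohesin, was at 17.2, 18.4 and 15.4 CPM in the wild type and at 22.8, 20.5 and 18.3 CPM in the knockout. Wild-type replicate 2 and knockout replicate 3 were nearly level, so the groups overlapped (log2 fold change 0.27 ± 0.118 SE, p 0.0452, adjusted p 0.308). Of 352 tested genes on the X chromosome 6.53% were called (12 higher, 11 lower), against 4.59% of all genes. At an unadjusted edgeR p under 0.05, 50 of them were higher (14.2%) and 31 were lower. Over all genes 6.94% were higher and 8.43% lower at that limit. The median log2 fold change of the X chromosome genes was 0.002, and 50.3% were positive. The other class IIb enzyme, Hdac10, a polyamine deacetylase, was at 69.6 ± 1.12 and 76.3 ± 4.65 CPM with no overlap (adjusted p 0.469).

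Of the 7 sirtuins, all tested, 3 had positive and 4 negative values, and 0 were called by edgeR (all genes: 4.59%). DESeq2 called 1, Sirt1 (all genes: 6.07%). Sirt1 was also the only one with an unadjusted edgeR p under 0.05 (all genes: 15.4%). Sirt1 (chromosome 10, 63319005 to 63339035), the nuclear sirtuin that deacetylates p53 and histones, was at 39.1, 33.6 and 29.6 CPM in the wild type and at 20.8, 27 and 24.7 CPM in the knockout. The groups did not overlap, though wild-type replicate 3 and knockout replicate 2 lay near each other. The log2 fold change was -0.49 ± 0.129 (SE), with adjusted p of 0.0633 in edgeR, 0.0184 in DESeq2 and 0.0648 in limma-voom. Without wild-type replicate 3 the edgeR adjusted p of Sirt1 was 0.037 at a log2 fold change of -0.58.

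Sirt4 (chromosome 5, 115478006 to 115490264), a mitochondrial sirtuin, was at 5.65, 6.37 and 6.77 CPM in the wild type and at 7.77, 6.81 and 8.18 CPM in the knockout. The highest wild-type library and the lowest knockout library were almost equal (log2 fold change 0.27 ± 0.16 SE, p 0.121, adjusted p 0.504). Sirt2, the cytoplasmic tubulin deacetylase, was at 27.1 ± 1.23 and 24.4 ± 0.939 CPM with no overlap (adjusted p 0.486). The mitochondrial Sirt3 and Sirt5 and the nuclear Sirt6 and Sirt7 had adjusted p of 0.962, 0.881, 0.841 and 0.711, and the groups overlapped for each.

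Of the 15 readers and scaffolds, 0 were called by edgeR, DESeq2 or limma-voom and 1 had an unadjusted p under 0.05, but 14 had a positive log2 fold change (all genes: 51.0% positive). The median was 0.12, against 0.004 over all genes, and the groups did not overlap for 4 (26.7%, against 20.9% of all genes), all higher in the knockout (Brd3, Brd7, Brd8 and Ing2). The exception was Ing4, a reader of methylated H3 in KAT7 complexes, at 2.11 ± 0.514 and 1.83 ± 0.123 CPM. In a companion list of 28 other bromodomain genes, 26 were tested and 22 had a positive value (median 0.11). In that list edgeR called 0, DESeq2 called 1, and 3 had an unadjusted edgeR p under 0.05 (all genes: 4.59%, 6.07% and 15.4%). Single genes in these lists did not pass the test and no test was made of the lists as such.

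Brd3 (chromosome 2, 27445576 to 27507657), a BET protein that binds acetylated histones and GATA1, was at 58.4, 70.7 and 73.8 CPM in the wild type and at 74.4, 81.5 and 93.4 CPM in the knockout. The groups were separate by less than 1 CPM, between wild-type replicate 3 and knockout replicate 1. The log2 fold change was 0.30 ± 0.109 (SE), with p 0.0221 and adjusted p 0.206 in edgeR, 0.148 in DESeq2 and 0.209 in limma-voom. Brd2, the other BET member of the list, was at 240 ± 9.5 and 248 ± 17.5 CPM, and the log2 ratio of Brd2 to Brd3 was lower by 0.25 in the knockout, with no overlap.

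The BRPF scaffolds, which hold KAT6 or KAT7 to their ING and MEAF6 partners, had overlapping groups. Brpf1 was at 65.7 ± 3.06 and 70.3 ± 4.58 CPM, Brd1 (BRPF2) at 95.1 ± 3.9 and 103 ± 6 CPM and Brpf3 at 7.54 ± 0.986 and 8.47 ± 0.628 CPM. Brd7, a subunit of the PBAF remodeller, was at 101 ± 1.63 and 111 ± 5.1 CPM and Brd8, of the TIP60 complex, at 179 ± 6.5 and 198 ± 10.9 CPM, both without overlap (adjusted p 0.387 and 0.411). Brd9, of the noncanonical BAF remodeller, was at 71.7 ± 2.81 and 72.6 ± 2.9 CPM.

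The ING readers had adjusted p from 0.452 to 0.955. Ing1 and Ing2, which bring the SIN3 deacetylase complex to methylated H3, were at 47.7 ± 4.26 and 53.4 ± 2.2 CPM and at 17.9 ± 0.93 and 20 ± 0.889 CPM. Ing3, of the TIP60 complex, was at 35.7 ± 2.18 and 36.4 ± 4.55 CPM and Ing5 at 61.6 ± 5.19 and 65.3 ± 3.88 CPM. For the TIP60 complex as a whole, 18 genes were tested, with log2 fold changes from -0.07 to 0.17. Of these, 0 were called by edgeR, DESeq2 or limma-voom (all genes: 4.59%, 6.07% and 4.74%). At an unadjusted edgeR p under 0.05 there were 0 (all genes: 15.4%). The 18 genes include the large scaffolds Trrap (130 ± 27 and 146 ± 13.8 CPM) and Ep400 (138 ± 22.7 and 144 ± 16.7 CPM).

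The balance between related genes was compared in 14 pairs, since a ratio within a library does not depend on scaling. The groups did not overlap in 6 pairs, each with an exact permutation p of 0.1, the smallest this design allows, and an adjusted value of 0.233. No share over other gene pairs was computed, so 6 of 14 cannot be set against a background. The ratios reuse the members' counts given above and are not separate evidence of a change. After Kat6a/Kat6b the largest shift was Hdac4/Hdac5, higher by 0.37 in the knockout. Brd2/Brd3, Ncoa1/Ncoa3 and Crebbp/Ep300 were lower by less than 0.3, with differences of -0.25, -0.22 and -0.14, and Brd7/Brd9 was higher by 0.12. Hdac7/Hdac9 differed by -0.36, but its groups overlapped (p = 0.2, exact permutation test).

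**Figure D3:**
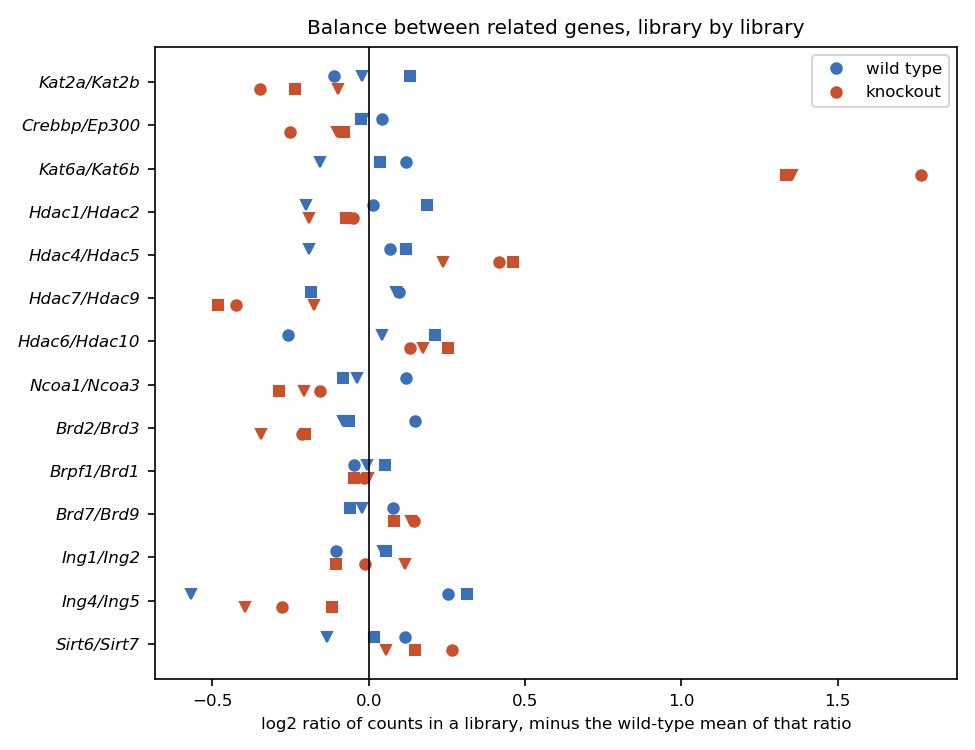
Log2 ratio of the reads of 2 related genes in each library, minus the wild-type mean of that ratio (x axis), for 14 pairs (y axis); circles, squares and triangles are replicates 1, 2 and 3 of the wild type (blue) and knockout (red). Kat6a/Kat6b shifts by 1.49, and the other pairs differ by 0.37 or less in either direction.

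Variation between libraries was not even over the genes. In wild-type replicate 3, 6 of the 44 members were lower by more than 0.4 (log2; a limit chosen after seeing the data) than the mean of the other wild-type libraries: Kat6a (-0.51), Crebbp (-0.54), Ep300 (-0.51), Trrap (-0.56), Ep400 (-0.44) and Ing4 (-0.62). Of all tested genes 16.1% were lower by as much in that library, so the members' share, 6 of 44, does not exceed that background. In wild-type replicate 3 the median deviation was 0.0755 for the quartile of genes with the shortest span (up to 7.89 kb). It was -0.0781 for the quartile with the longest (from 45.9 kb). Whether span is linked to the low values of the 6 members was not tested. Without this library the log2 fold changes of Crebbp and Ep400 were -0.10 and -0.07, in place of 0.06 and 0.06. Those of Kat6a, Ep300 and Trrap were 0.03, 0.05 and 0.01, in place of 0.18, 0.20 and 0.17, and that of Ing4 was -0.39 in place of -0.21. The number of positive members without each library in turn ran from 27 to 32, against 31 with all 6 libraries.

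**Figure D4:**
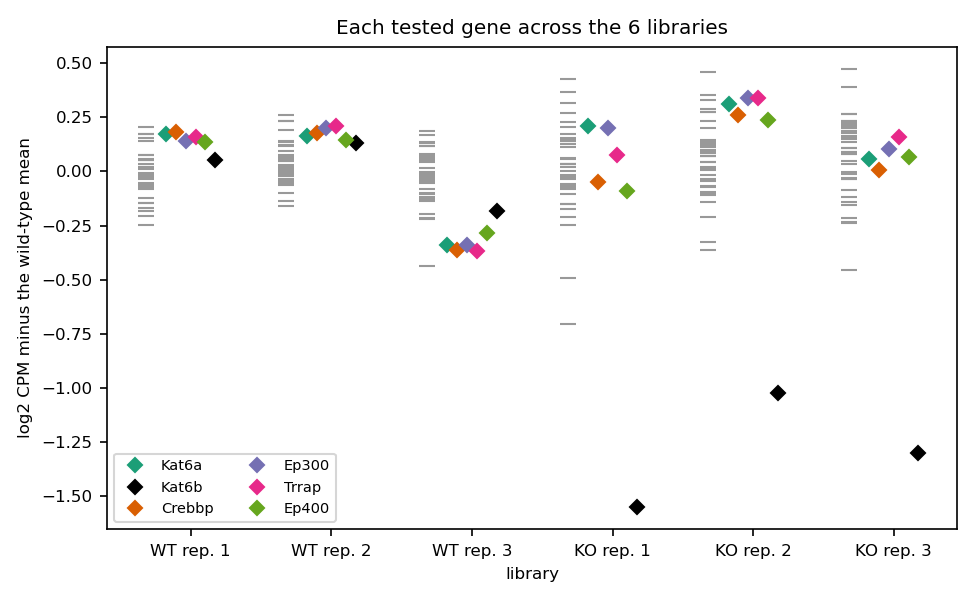
Log2 CPM minus the wild-type mean (y axis) for each tested gene in each of the 6 libraries (x axis). Diamonds are Kat6b and 5 acetyltransferase or scaffold genes, and grey dashes are the other tested members. The 5 genes are among the 6 members lower by more than 0.4 in wild-type replicate 3, so they lie low there by choice. Kat6b lies below all other members in every knockout library.

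The partners that carry these enzymes and the supply of their substrates were taken from 10 companion lists with 131 genes, of which 125 were tested. In them 0 genes rose and 4 fell, or 3.2%, near the 4.59% of all genes, and the median log2 fold change was 0.02. The lists for NuRD (12 tested), SIN3 (11), SAGA and ATAC (22), TIP60 subunits (13), KAT6 and KAT7 subunits (4) and YEATS readers of acyl marks (6) had 0 calls in edgeR, with 2, 2, 2, 0, 0 and 0 genes at an unadjusted p under 0.05 and 1 DESeq2 call in NuRD. Over all genes 15.4% had an unadjusted edgeR p under 0.05, and DESeq2 called 6.07%.

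Of the 15 tested genes of CoREST, NCoR and MiDAC, 2 fell, both at low level. Rcor3, a CoREST scaffold, was at 2.4, 3.55 and 1.86 CPM in the wild type and at 0.622, 0.657 and 0.264 CPM in the knockout (log2 fold change -2.30 ± 0.401 SE, adjusted p 0.00844). Trerf1, a zinc-finger protein found with HDAC1 and HDAC2, was at 3.53, 1.8 and 3.78 CPM in the wild type and at 0.187, 0.657 and 0.198 CPM in the knockout (log2 fold change -3.00 ± 0.492 SE, adjusted p 0.00602). Both passed the count filter (0.627 CPM in 3 libraries) only through the wild type, where they are high, since 1 knockout library of each reached it. All 44 tested members reached that limit in every library.

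Of 11 genes that supply acetyl-CoA, all tested, 10 had negative values, 5 had an unadjusted p under 0.05 and 1 fell, with a median of -0.20. Over all genes 51.0% had positive values, 15.4% an unadjusted p under 0.05 and 4.59% a call. No test was made of the list. Crat, the carnitine acetyltransferase that exchanges acetyl groups between CoA and carnitine, was at 18.2, 15.2 and 18.5 CPM in the wild type and at 7.03, 7.65 and 5.87 CPM in the knockout. It was 2.51-fold lower, with no overlap (log2 fold change -1.33 ± 0.144 SE, adjusted p 0.000618). Acly, the citrate lyase that makes nuclear and cytosolic acetyl-CoA, was at 686 ± 7.42 and 614 ± 50.1 CPM (adjusted p 0.4), and Dlat, the acetyltransferase subunit of pyruvate dehydrogenase, at 123 ± 8.18 and 103 ± 4.71 CPM (adjusted p 0.108). Among 8 tested genes of NAD salvage, which feeds the sirtuins, 1 fell: Nmrk1, the nicotinamide riboside kinase, at 17.7, 15.2 and 15.7 CPM in the wild type and 11.4, 10.9 and 10.1 CPM in the knockout (log2 fold change -0.58 ± 0.116 SE, adjusted p 0.0174). Acly and Dlat were named after their values were seen.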

How the data were processed

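Each of the 6 RNA libraries has a deposited file of raw counts by gene, whole numbers with no scaling, per the file headers. Ribosomal RNA was depleted from total RNA before library preparation, per the labels' protocols. STAR 2.5.3a, featureCounts 2.0.0 and mm10 are listed in the submitters' processing notes. Whether strand was used and how multi-mapped reads were counted is not given in the sources used here, so overlapping and antisense genes may share reads. Symbols were matched by versioned identifier for 54587 of 55335 genes and by identifier without its version for 565 more, among them Kat6a and Kat6b. Positions came from RefSeq (GRCm38.p6).

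Genes were kept by filterByExpr (13077), scaled by TMM and tested by quasi-likelihood in edgeR 4.0.16 under R 4.3.3, with Benjamini-Hochberg adjustment over all tested genes. The SE came from the fold change and the F statistic. Pair ratios used counts plus 0.5 and an exact two-sided permutation test. The 10 genes with most reads took 8.55% to 11% of a library, and counts of same-group libraries differed beyond sampling noise in every pair (chi-square per degree of freedom 7.4 to 19.5). Members and lists were chosen with earlier results of these data known. A member was given in every library if it was called, had an unadjusted p under 0.05, or separated the groups by at least 1.2-fold. Called genes of the companion lists were named, at most 2 per direction and list, and Kat6a and the neighbours of Kat6b were added because of the Kat6b call. Alternatives were RLE scaling, library totals, other count filters, DESeq2 1.42.0, limma-voom (3.58.1), a replicate block, and fewer libraries. The scripts were tested on simulated data. Levels per transcript length were planned but not computed, since exon lengths were not used here, so transcript levels of different genes are not compared. The limit for 0 reads (3 counts) covers counting error alone. The chromatin immunoprecipitation samples were not analysed here.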

Additional observations from a re-analysis of the deposited data

How the results depend on the processing

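Kat6b was called lower in all 14 alternatives (adjusted p up to 0.0029). The count of called members was 1 in the main analysis, 3 without a filter on low counts, 3 with DESeq2 (Kat6b, Hdac5 and Sirt1 in both) and 3 with the replicate number as a block (Kat6b, Hdac5 and Brd3, the last higher), and it ran from 1 to 2 when each library was left out (2, with Sirt1, without wild-type replicate 3). Whether replicate numbers pair the samples is not settled. Correlations of same-numbered deviations were 0.0294, 0.212 and 0.403 for numbers 1, 2 and 3. Wild-type replicates 2 and 3 and knockout replicates 1 and 3 matched their own number best. Wild-type replicate 1 and knockout replicate 2 did not. The replicate block changed no other member's call. Over all genes the 600 calls became 1203 of 26696 without a filter, 946 with the replicate block, 392 when a mean log2 CPM of at least 2 was required, 399 without both libraries numbered 2 and 380 without wild-type replicate 1.

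Of the 44 members 32 kept their direction in every alternative that could test them, and 12, with values near 0, did not. With library totals only, Kat2a was 0.00307 and Hat1 0.0164 (log2). Without both libraries numbered 2, Kat2a was 0.0645, Hdac1 0.021, Hdac4 -0.0492 and Sirt3 -0.049. Leaving out each library in turn gave ranges of -0.107 to 0.059 for Kat2a, -0.0854 to 0.095 for Hat1, -0.0979 to 0.143 for Crebbp, -0.0438 to 0.0757 for Ncoa2, -0.15 to 0.156 for Sirt3, -0.0104 to 0.046 for Brd9, -0.0658 to 0.00644 for Hdac1, -0.0539 to 0.0779 for Hdac4, -0.0678 to 0.106 for Ing3, -0.0654 to 0.142 for Ep400, -0.0304 to 0.0998 for Kat5 and -0.021 to 0.116 for Kat7. The pair ratios Brpf1/Brd1 and Ing1/Ing2 also changed sign (-0.0453 to 0.0044 for Brpf1/Brd1 and -0.0579 to 0.0517 for Ing1/Ing2). The cause was not tested. Readers and scaffolds with a positive value numbered 12 to 14 throughout. All 15 were tested each time, except where a mean log2 CPM of at least 2 was required. That filter left out Ing4, the only one with a negative value in the main analysis. With 3 libraries a group and 1 edited line, a member's change under about 1.5-fold may go undetected, and the alternative on transcript length was not run.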
